A study of Homo sapiens with 8 samples.

Results

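The genes described here are 8 listed factors and markers of epithelial-mesenchymal transition (EMT): the transcription factors ZEB1, ZEB2, SNAI2 (slug), TCF4 and PRRX1, the cytoskeletal and matrix genes VIM and FN1, and the receptor gene AXL. They were found by gene symbol, and 6 of the 8 were among the 12939 genes of the series. TCF4 and PRRX1 were not analysed here. The RNA came from cancer stem cells (CSCs), sorted as bright for both GFP and RFP, of the triple-negative breast cancer line MDA-MB-231. All groups shared a stable GFP reporter under the Oct4a regulatory region, which defines the CSCs, selection with G418, and a stable RFP vector under puromycin selection. They differed in the shRNA of that vector, which was a scramble sequence (Scramble, n = 3 libraries), an shRNA against CDH2, the gene of N-cadherin (CDH2 shRNA, n = 3), or an shRNA against connexin 43, the gap junction protein encoded by GJA1 (Cx43 shRNA, n = 2). The CDH2 knockdown line was 1 clone, and the sorted cells were kept in culture overnight before RNA was taken. The question was how the transcripts of the CSCs differ from the scramble control when CDH2 or Cx43 is knocked down. CDH2 and GJA1 themselves were not analysed here, and how far the shRNAs lowered them was not checked.

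Values are log2(CPM + 1), where CPM is the read count scaled to the library size, and a difference of 1 is a doubling of CPM + 1. Library depth is unknown, because no counts of reads are given, and the spread between libraries sets the precision. Nothing states that the replicates were separate cultures, and the p-values then measure only the spread between these libraries, which may be technical. Fewer cells of a kind and less RNA per cell cannot be told apart in such bulk samples. For any gene, the departures of same-numbered libraries from their group means cancelled to within 1e-04, so these libraries mirror each other. The number 3 was shared by Scramble and CDH2 shRNA alone, in which a deviation up in one is the same deviation down in the other.

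In EMT, epithelial cells lose their junctions and gain motility. ZEB1, ZEB2 and SNAI2 are zinc finger repressors that bind E-box sequences, among them that of the E-cadherin gene, CDH1. VIM encodes vimentin, the intermediate filament of mesenchymal cells, and FN1 encodes fibronectin, which integrins assemble into matrix. AXL is a receptor tyrosine kinase that the ligand GAS6 activates, and its expression is high in mesenchymal carcinoma cells. MDA-MB-231 is a basal B line with a mesenchymal form before any treatment.

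The promoters of 3 of the genes are shown because ZEB1 and AXL were above Scramble in every library of both knockdowns, while FN1 had the widest spread and lay lowest with Cx43 shRNA. Separation from Scramble was common among all genes, with the shares given below. Each sequence is the 250 bases before the first start site that RefSeq lists for the gene, on GRCh38.p14 and in the direction of the gene. ZEB1 lies at chr10:31318167-31318416 on the plus strand, AXL at chr19:41218973-41219222 on the plus strand and FN1 at chr2:215436069-215436318 on the minus strand. Capitals mark the E-box CAGGTG (searched with its reverse complement CACCTG) and the cAMP response element TGACGTCA, which reads the same on both strands.
ZEB1: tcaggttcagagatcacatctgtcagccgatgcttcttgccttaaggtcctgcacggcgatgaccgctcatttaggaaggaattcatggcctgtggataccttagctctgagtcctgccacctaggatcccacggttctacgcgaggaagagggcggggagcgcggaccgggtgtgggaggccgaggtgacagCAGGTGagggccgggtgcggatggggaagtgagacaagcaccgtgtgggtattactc
AXL: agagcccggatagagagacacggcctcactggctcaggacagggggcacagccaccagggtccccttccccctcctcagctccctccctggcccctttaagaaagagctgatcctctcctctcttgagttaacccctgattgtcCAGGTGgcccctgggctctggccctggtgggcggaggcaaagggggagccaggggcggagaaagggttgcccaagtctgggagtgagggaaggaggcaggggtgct
FN1: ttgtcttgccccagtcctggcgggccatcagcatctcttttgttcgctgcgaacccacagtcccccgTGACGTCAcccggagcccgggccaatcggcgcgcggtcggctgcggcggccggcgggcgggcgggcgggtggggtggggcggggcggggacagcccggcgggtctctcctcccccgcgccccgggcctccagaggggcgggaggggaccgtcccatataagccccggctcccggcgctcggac
The E-box began 57 bases before the start in ZEB1 and 106 bases before it in AXL, and the cAMP response element of FN1 began 183 bases before the start. An E-box was held by 17.5% of the 35116 windows of this length in the RefSeq table and a cAMP response element by 1.65%. ZEB1 had 7 windows, of which 2 held an E-box, and AXL had 2 windows, of which 1 did. ZEB2, VIM and FN1 had 1 window each, without this E-box. An AP-1 motif (TGAGTCA or TGACTCA) was in 4.2% of all windows and in the first window of none of these 5 genes. A match is a description of letters and not of a bound site, and which start site these cells use was not tested.

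The genes spanned a wide range of levels. Per kilobase of annotated exons, VIM had the highest level in Scramble, at 163 ± 4.04 CPM per kilobase (SD, n = 3), followed by AXL at 89.4 ± 4.10. FN1 stood at 14.4 ± 6.48, SNAI2 at 8.19 ± 0.61, ZEB1 at 7.14 ± 0.99 and ZEB2 at 0.276 ± 0.030 on the same scale. The order of FN1 and SNAI2 was not set beyond their spread, since the lowest FN1 library of Scramble (8.52) lay below the highest of SNAI2 (8.83), and SNAI2 and ZEB1 also overlapped. With CDH2 shRNA, ZEB1 (8.98 to 11.8 CPM per kilobase) had a higher mean level than SNAI2 (7.51 to 9.13), with overlap. With Cx43 shRNA, ZEB1 (8.64 to 8.75) lay above FN1 (7.16 to 7.18) on this scale, without overlap. FN1 in turn lay above SNAI2 (5.95 to 6.55), also without overlap. The order of FN1, ZEB1 and SNAI2 depends on the length used, which takes in all annotated exons of a gene. Without length, FN1 (6.96 in both Cx43 shRNA libraries) lay above ZEB1 (6.24 and 6.26) on the log2(CPM + 1) scale. Which transcripts of these genes the cells make was not tested. VIM and AXL kept the first and second place in all 3 groups. VIM had a higher mean than 99.7% of all genes, and ZEB2 than 19.9%, on the log2(CPM + 1) scale without length.

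**Figure D1:**
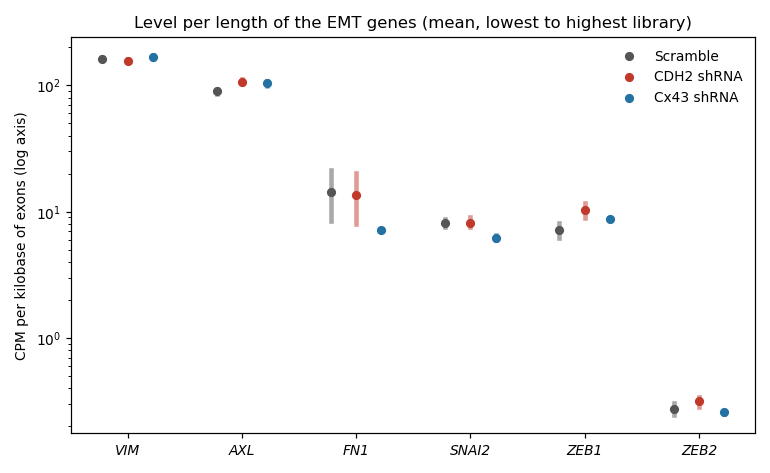
Level of each EMT gene in CPM per kilobase of exons (log axis), with the mean of each group as a point and the range from the lowest to the highest library as a bar. VIM and AXL stand highest in every group, ZEB2 lowest, and in Scramble the range of SNAI2 overlaps those of FN1 and ZEB1.

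None of the 6 genes passed the test in either knockdown. The test was limma's, on all 12939 genes with the replicate number as a block, and the threshold was an adjusted p under 0.05 together with a log2 fold change of 0.73 or more (CDH2 shRNA versus Scramble) or 0.58 or more (the other comparisons). The lowest adjusted p was that of ZEB1, which was 1.45-fold higher with CDH2 shRNA than in Scramble, short of the fold and of the adjusted p. AXL was 1.19-fold higher with CDH2 shRNA, and SNAI2 was 0.772 times and FN1 0.535 times its Scramble level with Cx43 shRNA, FN1 being past the fold and short of the adjusted p. Of all genes, 2.06% were past threshold with CDH2 shRNA and 1.18% with Cx43 shRNA, against 0 of these 6 in each. By adjusted p alone the shares of all genes were 14.3% and 1.21%, and again 0 of the 6 genes were called.

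**Figure D2:**
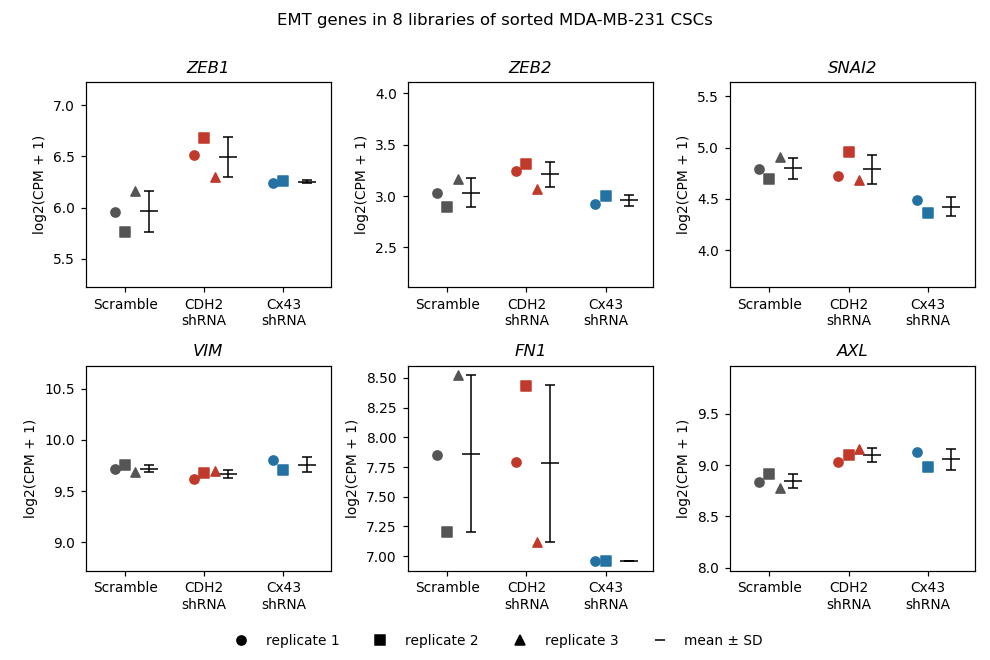
log2(CPM + 1) of each EMT gene in the 8 libraries, with the symbol giving the replicate number and the black bar the mean ± SD of the group; each panel has its own vertical range. ZEB1 and AXL of every knockdown library lie above all Scramble libraries, and FN1 of Scramble runs from 7.21 to 8.53. Of all genes, 27.1% lie above Scramble without overlap with CDH2 shRNA and 31.4% with Cx43 shRNA.

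ZEB1 (ENSG00000148516), an E-box repressor of epithelial genes, lies at chr10:31318495-31529814 on hg38. Its values were 5.96, 5.77 and 6.16 in Scramble 1 to 3, 6.51, 6.68 and 6.30 in CDH2 shRNA 1 to 3, and 6.24 and 6.26 in Cx43 shRNA 1 and 2. All 5 knockdown libraries were above the highest Scramble library, and the CDH2 shRNA libraries were all above those of Cx43 shRNA. Of all genes, 27.1% were above Scramble without overlap with CDH2 shRNA and 31.4% with Cx43 shRNA. The log2 fold change was 0.53 ± 0.15 (SE) with CDH2 shRNA, with a 95% interval of 0.17 to 0.90 and an adjusted p of 0.0643. A fit with no block on the replicate number gave an adjusted p of 0.0137, though the fold stayed short of the threshold. The values were already corrected by replicate number, so that fit counts 5 residual degrees of freedom where 3 remain. Its adjusted p are too small for that reason, here and below. Without the libraries numbered 3 (CDH2 shRNA 3 or Scramble 3, which give the same fit) the log2 fold change was 0.73 with an adjusted p of 0.00111, just past the threshold. That value rests on the pairs numbered 1 and 2, without pair 3, whose difference was the smallest, at 0.14. Leaving out the block thus moved only the adjusted p of ZEB1, and leaving out a library numbered 3 moved the call. The correction by replicate number was made with every library present. A left-out library therefore still acts on those of its number that remain, here and below. Without CDH2 shRNA 2 the log2 fold change was 0.38 (adjusted p = 0.182), and without Scramble 1 it was 0.53 (adjusted p = 0.242). For Cx43 shRNA it was 0.29 ± 0.18 with an interval of -0.14 to 0.72 and an adjusted p of 0.391. The adjusted p of this comparison was 0.0236 in a fit of Scramble and Cx43 shRNA alone. It was 0.0486 without CDH2 shRNA 3 or Scramble 3, at a log2 fold change of 0.39 in both. The fit of those groups alone rests on the pairs numbered 1 and 2, so its adjusted p leans on the spread of other genes. Without Scramble 2 the value for Cx43 shRNA was 0.093 with an adjusted p of 0.817. The exons of ZEB1 share 396 bases with those of the antisense RNA gene ZEB1-AS1, and whether reads were counted by strand is not given in the sources used here. ZEB1-AS1 itself differed from Scramble by 0.20 with CDH2 shRNA (log2, adjusted p = 0.274) and by 0.09 with Cx43 shRNA (adjusted p = 0.734).

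ZEB2 (ENSG00000169554, chr2:144364364-144521057), the paralog of ZEB1, had the lowest level of the 6 genes. It was at 3.03, 2.89 and 3.17 in Scramble 1 to 3, at 3.25, 3.31 and 3.07 in CDH2 shRNA 1 to 3, and at 2.92 and 2.997 in Cx43 shRNA 1 and 2. Both knockdowns overlapped Scramble. Its log2 fold change was 0.18 ± 0.11 with CDH2 shRNA (interval -0.10 to 0.46, adjusted p = 0.297) and -0.07 ± 0.13 with Cx43 shRNA (interval -0.40 to 0.26, adjusted p = 0.787). Without CDH2 shRNA 3 or Scramble 3 the CDH2 shRNA value was 0.32 with an adjusted p of 0.0463, still short of the fold, and it was 0.067 without Scramble 2 (adjusted p = 0.780) and 0.097 without CDH2 shRNA 2 (adjusted p = 0.651). The Cx43 shRNA value was -0.212 without Scramble 2, -0.128 without Cx43 shRNA 2, -0.017 without Cx43 shRNA 1 and -0.0035 without CDH2 shRNA 3 or Scramble 3. Its exons share 1299 bases with those of ZEB2-AS1, which was not analysed here.

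SNAI2 (ENSG00000019549, chr8:48917598-48921740), which encodes slug, was at 4.79, 4.70 and 4.91 in Scramble 1 to 3 and at 4.73, 4.95 and 4.68 in CDH2 shRNA 1 to 3. In Cx43 shRNA 1 and 2 it was at 4.49 and 4.36, below every other library. The CDH2 shRNA and Scramble libraries overlapped, with a log2 fold change of -0.01 ± 0.11 (interval -0.29 to 0.27, adjusted p = 0.952) whose sign turned with the libraries used: it was 0.09 without CDH2 shRNA 3 or Scramble 3 and 0.04 without CDH2 shRNA 1. With Cx43 shRNA SNAI2 was lower by 0.37 ± 0.13 on the log2 scale (interval -0.71 to -0.04, adjusted p = 0.192). That difference had an adjusted p of 0.0352 when the replicate block was left out, short of the fold. The log2 fold change was -0.27 without Cx43 shRNA 2, and -0.34 without CDH2 shRNA 2 (adjusted p = 0.122). The highest adjusted p over the alternatives was 0.817.

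VIM (ENSG00000026025, chr10:17228241-17237593), the vimentin gene, was the steadiest of the 6. It was at 9.71, 9.76 and 9.68 in Scramble 1 to 3, at 9.62, 9.68 and 9.70 in CDH2 shRNA 1 to 3, and at 9.81 and 9.70 in Cx43 shRNA 1 and 2. All groups overlapped except that Cx43 shRNA lay just above CDH2 shRNA. The log2 fold changes were -0.05 ± 0.08 with CDH2 shRNA (interval -0.25 to 0.14, adjusted p = 0.656) and 0.04 ± 0.09 with Cx43 shRNA (interval -0.19 to 0.27, adjusted p = 0.842), the second at -0.04 without Cx43 shRNA 1. These intervals bound the VIM difference at less than 0.27 either way. Its exons share 656 bases with those of VIM-AS1, which was not analysed here.

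FN1 (ENSG00000115414, chr2:215360440-215436073), the fibronectin gene, was the most scattered. Its values were 7.85, 7.21 and 8.53 in Scramble 1 to 3, 7.79, 8.44 and 7.12 in CDH2 shRNA 1 to 3, and 6.96 in both Cx43 shRNA libraries. Scramble and CDH2 shRNA covered the same range, and both Cx43 shRNA libraries lay below all others. The SD among the Scramble libraries was 0.66, and only 5 of the 12939 genes had a larger one. The range was 1.32 in Scramble, 1.32 in CDH2 shRNA and 0.0033 in Cx43 shRNA, and the high library was number 3 in Scramble and number 2 in CDH2 shRNA. The log2 fold change with CDH2 shRNA was -0.08 ± 0.45 (interval -1.19 to 1.03, adjusted p = 0.914). Without CDH2 shRNA 3 or Scramble 3 it was 0.59 with an adjusted p of 0.0407, and without CDH2 shRNA 2 or without Scramble 2 it was -0.60. With Cx43 shRNA it was -0.90 ± 0.53 (interval -2.21 to 0.40, adjusted p = 0.377). Without Scramble 2 the Cx43 shRNA value was -1.56 with an adjusted p of 0.00729, past the threshold. The deviation of CDH2 shRNA 2, which mirrors that of Scramble 2, stayed in that fit, so the effect of Scramble 2 was not fully taken out. A fit of Scramble and Cx43 shRNA alone gave -0.57 with an adjusted p of 0.00203, short of the fold. That fit rests on the pairs numbered 1 and 2, at -0.89 and -0.25, so its adjusted p leans on the spread of other genes. The value without CDH2 shRNA 3 or Scramble 3 was also -0.57, with an adjusted p of 0.0815.

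AXL (ENSG00000167601, chr19:41219223-41261766), the GAS6 receptor, was at 8.84, 8.91 and 8.78 in Scramble 1 to 3. It was at 9.03, 9.10 and 9.16 in CDH2 shRNA 1 to 3 and at 9.13 and 8.99 in Cx43 shRNA 1 and 2. All 5 knockdown libraries were above all 3 of Scramble, with the shares of all genes given for ZEB1, and the knockdowns overlapped each other. The log2 fold change was 0.25 ± 0.09 with CDH2 shRNA (interval 0.03 to 0.47, adjusted p = 0.1001) and 0.21 ± 0.10 with Cx43 shRNA (interval -0.05 to 0.47, adjusted p = 0.304). The Cx43 shRNA value was 0.106 without Cx43 shRNA 1, 0.320 without Cx43 shRNA 2 and 0.136 after quantile normalization, with adjusted p from 0.448 to 0.807. Without the replicate block the CDH2 shRNA difference had an adjusted p of 0.0164, short of the fold. Over all the alternatives that difference ran from 0.19 to 0.31, with adjusted p up to 0.459.

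**Figure D3:**
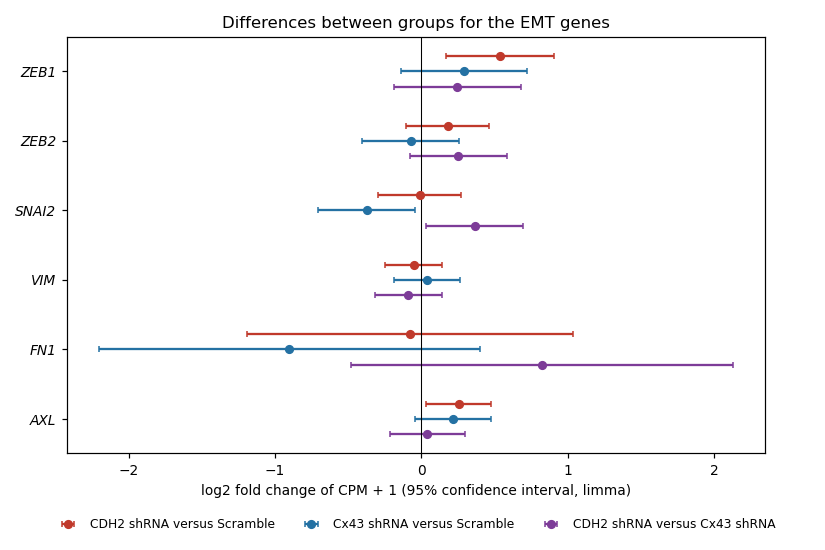
log2 fold change of CPM + 1 of each EMT gene in the 3 comparisons, with 95% confidence intervals from the limma fit. The intervals that leave out 0 are those of ZEB1 (0.17 to 0.90) and AXL (0.03 to 0.47) with CDH2 shRNA and those of SNAI2 with Cx43 shRNA (-0.71 to -0.04) and between the knockdowns (0.03 to 0.69), and the intervals of FN1 are the widest.

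The separation of the libraries was common among all genes. With CDH2 shRNA, 2 of the 6 genes (ZEB1 and AXL) were above Scramble without overlap, as were 27.1% of all genes, and 0 were below, as were 24.8% of all genes. With Cx43 shRNA, ZEB1 and AXL were above without overlap and SNAI2 and FN1 below. That is 2 of 6 in each direction, against 31.4% and 21.4% of all genes. After quantile normalization 1 of the 6 was above Scramble without overlap with Cx43 shRNA. An unadjusted p under 0.05 was reached by ZEB1 and AXL with CDH2 shRNA, where 37.5% of all genes reached it, and by SNAI2 with Cx43 shRNA, where 21.6% did. The 2 comparisons share the Scramble libraries, and the share of all genes above Scramble without overlap in both knockdowns was not counted.

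The libraries were also compared by replicate number. Same-numbered libraries mirror each other after the correction, so the pair differences are not independent replicates. In number 3 a deviation up in Scramble is the same deviation down in CDH2 shRNA, and both enter that difference. For ZEB1 and AXL the direction of each pair follows from the lack of overlap given above, and adds nothing to it. The same holds for SNAI2 and FN1 with Cx43 shRNA. ZEB1 in the CDH2 shRNA library was above the Scramble library of the same number by 0.55, 0.92 and 0.14 for numbers 1 to 3, and in the Cx43 shRNA library by 0.28 and 0.50 for numbers 1 and 2. For AXL these differences were 0.19, 0.19 and 0.38 with CDH2 shRNA and 0.29 and 0.07 with Cx43 shRNA. Every pair of ZEB1 and AXL was thus higher in the knockdown, as were all 3 pairs of 28.5% of all genes with CDH2 shRNA and both pairs of 42.5% with Cx43 shRNA. SNAI2 and FN1 were lower in both Cx43 shRNA pairs, by -0.30 and -0.34 for SNAI2 and by -0.89 and -0.25 for FN1, a pattern of 30.3% of all genes. With CDH2 shRNA no member was lower in all 3 pairs, against 26.1% of all genes. FN1 ran from 1.23 in pair 2 to -1.41 in pair 3 with -0.06 in pair 1, and SNAI2 was -0.06, 0.25 and -0.23 in pairs 1 to 3. ZEB2 was 0.21, 0.42 and -0.10 with CDH2 shRNA and -0.11 and 0.10 with Cx43 shRNA, so its pairs went both ways in each knockdown. VIM pairs stayed between -0.10 and 0.09 in both.

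**Figure D4:**
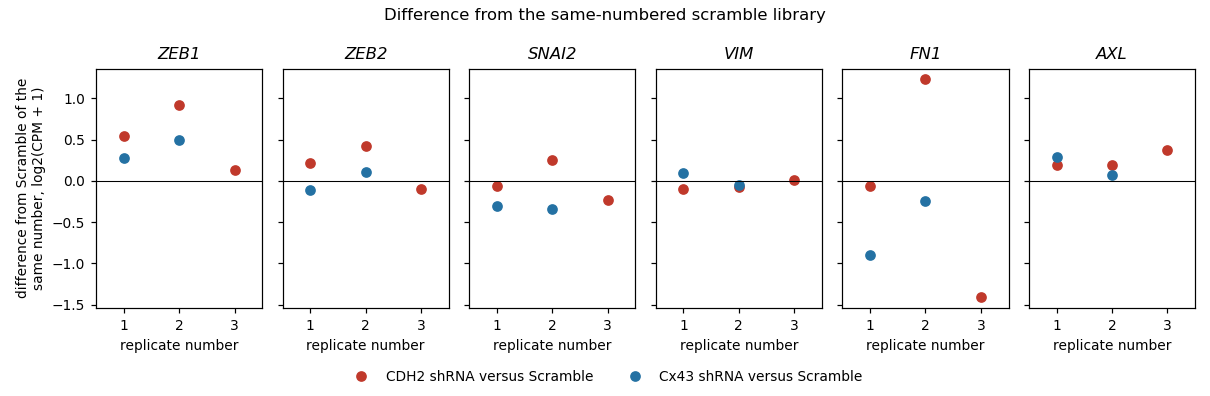
Difference in log2(CPM + 1) of each knockdown library from the Scramble library of the same replicate number, for each EMT gene; number 3 has no Cx43 shRNA library. ZEB1 and AXL are above 0 in every pair, and FN1 runs from -1.41 to 1.23 with CDH2 shRNA. Same-numbered libraries mirror each other after the run correction, so the pairs are not independent replicates.

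The knockdowns were then set against each other. SNAI2 stood 0.36 higher with CDH2 shRNA than with Cx43 shRNA on the log2 scale (interval 0.03 to 0.69, adjusted p = 0.222), and FN1 0.82 higher (interval -0.48 to 2.13, adjusted p = 0.427). For ZEB1 the difference was 0.24 (adjusted p = 0.473), for ZEB2 0.25 (adjusted p = 0.348), for AXL 0.04 (adjusted p = 0.849) and for VIM -0.09 (adjusted p = 0.614). ZEB1, ZEB2, SNAI2 and FN1 were higher with CDH2 shRNA without overlap, that is 4 of 6 against 21.8% of all genes, and VIM was lower, 1 of 6 against 29.1%. By limma no gene of the series was past threshold or had an adjusted p under 0.05 (0% in each), while 20% had an unadjusted p under 0.05, among them SNAI2. Without the replicate block 360 genes were past threshold, none of them among the 6, and SNAI2 had an adjusted p of 0.0431. FN1 passed the threshold without CDH2 shRNA 3 or Scramble 3 (1.16, adjusted p = 0.00649) and without Scramble 2 (0.95, adjusted p = 0.0336). It also passed in a fit of the knockdowns alone (1.16, adjusted p = 0.0306), which rests on the pairs numbered 1 and 2. SNAI2 had an adjusted p of 0.0400 without CDH2 shRNA 3 or Scramble 3, at 0.42. Without CDH2 shRNA 2 the differences between the knockdowns were smaller, at 0.170 for FN1 (adjusted p = 0.908), 0.196 for SNAI2 (adjusted p = 0.484), 0.057 for ZEB1 (adjusted p = 0.914) and 0.149 for ZEB2 (adjusted p = 0.711).

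Other genes of EMT were read from the same fit. Of 24 listed further EMT transcription factors, 16 were measured, and with CDH2 shRNA 2 rose, 1 fell and 13 did not pass the adjusted p, where 7.29% of all genes rose and 6.98% fell. FOXC1 rose by 0.43 and ETS1 by 0.56 (log2), and ID2, an inhibitor of basic helix-loop-helix factors, fell by 0.78 (adjusted p = 0.0297), past the threshold. With Cx43 shRNA ID2 fell by 1.25 (adjusted p = 0.0384), also past the threshold, and the other 15 did not pass, where 0.417% of all genes rose and 0.788% fell. SNAI1 (snail), the paralog of SNAI2, was at -0.73 with CDH2 shRNA (adjusted p = 0.0789) and at -1.27 with Cx43 shRNA (adjusted p = 0.0868). SOX4 was at -0.67 with CDH2 shRNA (adjusted p = 0.0617), and TCF3 at 0.58 with Cx43 shRNA (adjusted p = 0.0669). TWIST1 and TWIST2 were not analysed here. The list had a median log2 fold change of 0.09 in each knockdown, beside 0.01 and 0.04 over all genes.

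Of 35 listed further mesenchymal markers, 27 were measured. With CDH2 shRNA 4 fell, 1 rose and 22 did not pass, where 6.98% of all genes fell and 7.29% rose. S100A4, a calcium-binding protein of motile cells, fell by 1.51 (adjusted p = 0.0160), from 4.57 ± 0.02 in Scramble to 3.07 ± 0.18, past the threshold. LGALS1 (galectin 1) fell by 0.65, PDGFRB, a receptor of platelet-derived growth factor, fell by 0.63, and SPARC, a matrix protein, fell by 0.39, while TNC (tenascin C) rose by 0.57. With Cx43 shRNA S100A4 fell by 1.22 (adjusted p = 0.0417), past the threshold, and 26 did not pass. TAGLN, an actin-binding protein of smooth muscle, was at -1.16 (adjusted p = 0.143), and COL1A1, a collagen chain, at -0.92 (adjusted p = 0.173), with Cx43 shRNA. The median of the list was -0.13 with CDH2 shRNA and -0.31 with Cx43 shRNA, beside 0.01 and 0.04 over all genes. With Cx43 shRNA 21 of the 27 values were negative, as were 42.4% of the values of all genes.

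Of 35 listed epithelial markers, 16 were measured, and CDH1 was not analysed here. With CDH2 shRNA 4 fell, 0 rose and 12 did not pass, beside the same shares of all genes (6.98% and 7.29%). The median was -0.31, beside 0.01 over all genes. CLDN7, a claudin of tight junctions, fell by 0.80 (adjusted p = 0.0198), past the threshold, JUP (plakoglobin) fell by 0.60, SPINT2, a protease inhibitor, fell by 0.56, and EPCAM, an epithelial adhesion molecule, fell by 0.37. DSP (desmoplakin) was at 0.56 (adjusted p = 0.0817). With Cx43 shRNA none of the 16 passed, the median was -0.06, and the largest differences were those of CD24 at -0.92 (adjusted p = 0.0532), JUP at -0.55 (adjusted p = 0.134) and CLDN7 at -0.45 (adjusted p = 0.111). The summed CPM of these markers was 1301 to 1378 in Scramble, 1165 to 1200 with CDH2 shRNA and 1250 to 1272 with Cx43 shRNA.

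The partners of the 6 genes were mostly short of the test too. Of all genes, 14.3% passed the adjusted p with CDH2 shRNA and 1.21% with Cx43 shRNA, in either direction. All 15 co-repressors and chromatin partners of the ZEB and SNAI factors were measured, and with CDH2 shRNA SIRT1, a deacetylase, rose by 0.65 and EP300, an acetyltransferase, rose by 0.66, while 13 did not pass. The value of SUV39H1 was 0.26 (adjusted p = 0.285). With Cx43 shRNA none of the 15 passed, and BMI1 was at 0.33, SIRT1 at 0.25 and HDAC2 at 0.24. Of 10 genes of SNAI2 and ZEB turnover, 9 were measured, and with CDH2 shRNA FBXL14 rose by 0.46 and FBXO45 by 0.38, both of them F-box proteins of ubiquitin ligases that target SNAI factors, while ATM was at 0.61 (adjusted p = 0.0893). With Cx43 shRNA FBXL14 was at 0.52 (adjusted p = 0.0550), FBXO45 at 0.31 and ATM at 0.31, and none of the 9 passed. None of the 4 genes of the AXL ligands and receptor family passed in either knockdown. GAS6 was at -0.28 (adjusted p = 0.0577) and 0.15, PROS1, the other ligand of the family, at 0.38 and 0.90 (adjusted p = 0.122), and TYRO3 at 0.08 and 0.43, with CDH2 shRNA and Cx43 shRNA in that order.

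Of 11 fibronectin receptor and assembly genes, 9 were measured, and with CDH2 shRNA TNS1 (tensin 1), which links integrins to actin, rose by 0.42 (adjusted p = 0.0465) while 8 did not pass, with ITGAV at 0.33 and ITGB5 at -0.32. With Cx43 shRNA none of the 9 passed, and ITGB3 was at -0.52, TNS1 at -0.44 and ITGA5, a chain of the main fibronectin receptor, at -0.38. Of 7 intermediate filament genes and linkers, 6 were measured. With CDH2 shRNA DES (desmin) fell by 1.18 (adjusted p = 0.0160) and NES (nestin) by 0.81 (adjusted p = 0.0199), both past the threshold. LMNB1, a lamin, was at 0.37. For these lists too, 14.3% of all genes passed the adjusted p with CDH2 shRNA and 2.06% were past the threshold, in either direction. With Cx43 shRNA none of the 6 passed, with NES at -0.54 (adjusted p = 0.0927), DES at -0.51 (adjusted p = 0.0984) and LMNB1 at 0.42. VIM, of the same filament class as DES and NES, had the values given above. Of 9 antisense and host transcripts of the genes, ZEB1-AS1 alone was measured. These calls depend on the libraries in the fit. Of the 19 genes of the lists called with CDH2 shRNA, 0 were called without any 1 of CDH2 shRNA 1, CDH2 shRNA 2, Cx43 shRNA 1 or Cx43 shRNA 2, 1 without Scramble 1, 16 without Scramble 2, and 19 without CDH2 shRNA 3 or Scramble 3. The 2 calls with Cx43 shRNA, ID2 and S100A4, were lost without any 1 of the same 4 libraries or Scramble 1, and both stood in the other 3 fits.

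**Figure D5:**
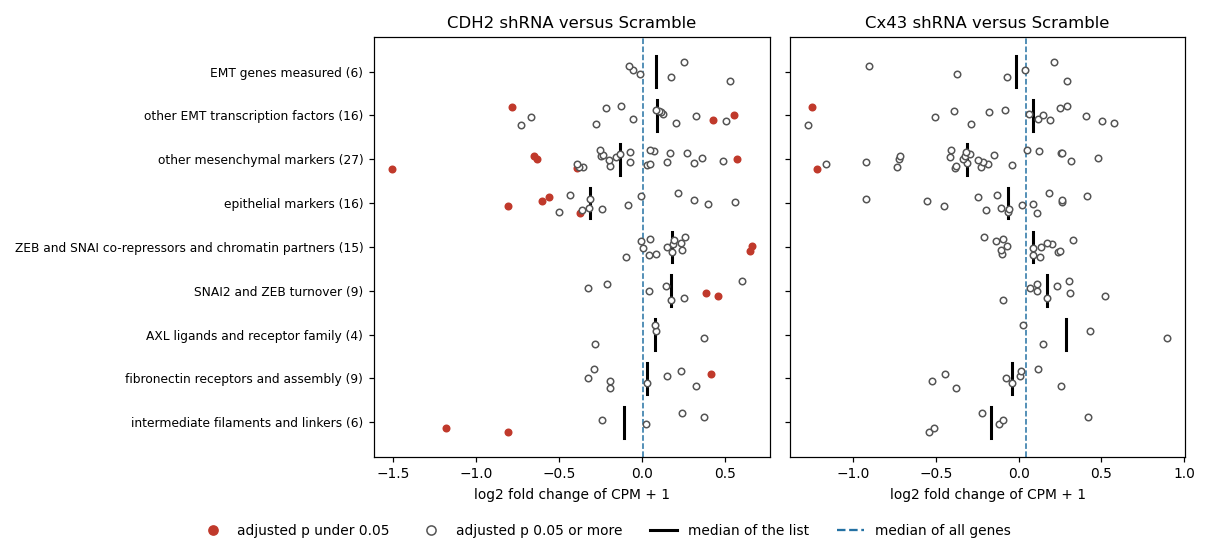
log2 fold change of CPM + 1 of every measured gene of each list, with filled points for an adjusted p under 0.05, a black bar for the median of the list and a dashed line for the median of all genes. None of the 6 EMT genes is filled, S100A4 at -1.51 and DES at -1.18 stand farthest to the left with CDH2 shRNA, and the other mesenchymal markers have a median of -0.31 with Cx43 shRNA.

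The labelled cell line was checked on its markers. All 8 markers of basal B breast cancer lines were measured, with a summed CPM of 2150 to 2322 in Scramble, 2308 to 2596 with CDH2 shRNA and 2311 to 2467 with Cx43 shRNA. Of 10 luminal markers 3 were measured (KRT8, KRT18 and EPCAM), with a summed CPM of 659 to 834 in Scramble, 538 to 678 with CDH2 shRNA and 677 to 685 with Cx43 shRNA, and ESR1, PGR, GATA3 and FOXA1 were not analysed here. Of the 7 stromal markers COL1A1 was measured, at 11.6 to 14.3 CPM in Scramble, 12.3 to 19.2 with CDH2 shRNA and 4.65 to 8.76 with Cx43 shRNA. Of the 7 leukocyte markers CD68 was measured, at 17.1 to 17.5 CPM in Scramble, 17.5 to 21.5 with CDH2 shRNA and 12.6 to 15.9 with Cx43 shRNA. The samples were a cell line sorted for GFP and RFP, and the purity after the sort was not checked here. COL1A1 and CD68 were lowest with Cx43 shRNA, where FN1 and SNAI2 were lowest too, and their part in those values was not tested.

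The genes whose pattern over the 8 libraries was most like that of each gene were found by Pearson's r, given as a description, since the libraries share the run correction and the group differences. For ZEB1 they were EEA1 and TRPM7 (r = 0.999 each), and 10% of all genes had an r over 0.9 with it. For ZEB2 they were MITF (r = 0.998) and BLZF1 (0.997), for SNAI2 ZNF674 (0.9996) and KDM5B (0.999), and for AXL TEX261 (0.999) and ETF1 (0.997). VIM was most like MAN1B1-AS1 (0.994) and RPL7AP31 (0.992), both of low level, and FN1 most like ADAMTS15 (0.995) and IDS (0.992). Between the genes themselves, SNAI2 and FN1 had the highest r (0.89), followed by ZEB1 with ZEB2 and ZEB2 with FN1 (0.79 each), while ZEB2 and VIM had the lowest (-0.82). ZEB1 and AXL, both higher in the knockdowns, had an r of 0.59.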

How the data were processed

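RNA-Seq of 8 libraries was used, 3 Scramble, 3 CDH2 shRNA and 2 Cx43 shRNA. Per the labels and the methods, the authors aligned reads to hg38 with STAR (2.6.1 in the submitters' processing notes) in Partek Flow with expectation maximization, removed a low-quality sample, normalised to log CPM + 1, took out the batch effect of the sequencing replicates (log normal model, shrinkage) and dropped low genes. The unit as deposited is log2(CPM + 1), and base 2 was checked from the library sums of 684411 to 727083 CPM. A line without a gene name was left out, and 12939 genes remained.

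The values were fitted with limma 3.58.1 (lmFit and eBayes, R 4.3.3) on all 8 libraries at once, with terms for group and for the labels' replicate number (the replicate block). That the numbers carry the run correction was checked: deviations from group means sum to 0 within each number (tolerance 1e-04). P-values were two-sided and adjusted by Benjamini-Hochberg over all genes. The fold threshold was 1.66 for CDH2 shRNA versus Scramble and 1.5 for the others. Positions and exon lengths are from GENCODE v44 on hg38 and promoters from RefSeq (GRCh38.p14). The fit was tested on simulated data. Figures were drawn with matplotlib 3.10.9.

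Named are the listed genes, in each gene list every gene with an adjusted p under 0.05 and the 3 largest differences in each knockdown, and for each gene the 2 most alike by Pearson's r. The genes and lists were chosen with earlier results of these data known. The alternatives were no block, quantile normalization, median centring, a pseudocount of 0.1, eBayes with a trend, a filter that kept the top 75% of genes by mean, only the groups compared, adjusted p alone, and leaving out each library. The values had been corrected by replicate number with all 8 libraries present. The fits without a library therefore do not remove its full effect.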

Additional observations from a re-analysis of the deposited data

How the results depend on the processing

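The 6 genes had 249 log2 fold changes under the alternatives, with some but not all repeated fits removed. For CDH2 shRNA versus Scramble, the fit of only those groups and the fits without a Cx43 shRNA library gave identical values. Each of these fits was counted. Of the 249 values, 230 kept their direction and their side of the adjusted p of 0.05, and the repeated values are among them. A further 15 came under it and 5 changed sign, 1 of them (FN1) also coming under it. No value of the fit reported was under it, so none could be lost. Every change of sign came from leaving out a library, and the cause was not tested. With CDH2 shRNA versus Scramble, SNAI2 ranged from -0.145 to 0.0948 (0.0356 without CDH2 shRNA 1) and FN1 from -0.60 to 0.59. VIM with Cx43 shRNA ranged from -0.0391 (without Cx43 shRNA 1) to 0.115, and AXL between the knockdowns from -0.0659 (without Cx43 shRNA 2) to 0.148. ZEB2 had no value under the filter on low means.

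Of the 6 genes, 0 to 1 were past threshold in each comparison when a library was left out (ZEB1 with CDH2 shRNA, FN1 in the other comparisons), and 1 (FN1) between the knockdowns in the fit of only those groups. Quantile normalization left 1 rather than 2 of the genes above Scramble without overlap with Cx43 shRNA. It put 5 rather than 4 of them higher with CDH2 shRNA than with Cx43 shRNA without overlap. VIM overlapped between the knockdowns under quantile normalization and median centring.

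Over all genes the counts moved more. Without the replicate block 532 genes were past threshold with Cx43 shRNA and 360 between the knockdowns, against 153 and 0. The filter on low means left 150 with CDH2 shRNA and 4 with Cx43 shRNA, and the fit of only the groups compared gave 0 with CDH2 shRNA, 741 with Cx43 shRNA and 414 between the knockdowns. By adjusted p alone 1846 genes were called with CDH2 shRNA, against 267. Leaving out a library gave 0 to 723 with CDH2 shRNA, 0 to 730 with Cx43 shRNA and 0 to 545 between the knockdowns. Without read counts, no limit set by depth could be given. Leaving out the replicate block changed the side of the adjusted p in 4 comparisons of the 6 genes, those given with ZEB1, AXL and SNAI2, and in no other. The adjusted p of that fit are too small, since it counts 5 residual degrees of freedom where 3 remain.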
